A study of Mus musculus with 34 samples.

Results

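Voltage-gated sodium channels were followed through 7 of their subunit genes in ribosome-bound mRNA of mouse interneurons. The members were the pore subunits Scn1a, Scn2a, Scn3a and Scn8a and the beta subunits Scn2b, Scn3b and Scn4b. They were picked by gene symbol, and Scn2a was read as Scn2a1 where a table used that older symbol. These 7 genes are among 24371 listed for batch 1, 11808 for batch 2 and 53465 for each of batches 3, 4 and 5. All 7 passed the filter on low counts in each of the 8 comparisons made.

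A sodium channel is built from a large pore subunit, which opens on depolarization and carries the rising phase of the action potential, and smaller beta subunits, which set gating and hold the channel in the membrane. Scn1a encodes the pore subunit best known from parvalbumin interneurons, where its loss causes epilepsy in Dravet syndrome. Scn8a and Scn2a encode the main pore subunits of the axon initial segment, Scn3a is most prominent before birth, and Scn4b is linked to the resurgent current of fast-firing cells.

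The study tagged ribosomes with RiboTag, a Cre-dependent allele that places an HA epitope on Rpl22, in C57/BL6 mice at postnatal day 60, and sequenced the mRNA that an anti-HA antibody pulled down. Cre came from the Pvalb locus (PV libraries) or the Sst locus (SST libraries), so each library holds whatever cells had used that driver. It asked which genes respond to contextual fear conditioning (CFC, foot shocks given in a context), with the GABA receptor blocker pentylenetetrazol (PTZ) as a reference, and profiled mice with a floxed Nr4a1 gene. The sample labels name cortex plus hippocampus and the extraction protocol names cortices only.

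All 34 libraries carried RiboTag and 1 of the 2 Cre drivers, in 11 groups. Batch 1 held PV mice given saline (n = 3) or PTZ (n = 4). Batch 2 held PV mice given saline (n = 2) and SST mice given saline (n = 4) or PTZ (n = 3). Batch 3 held PV mice from the home cage (n = 3), PV mice after CFC (n = 3) and home cage PV mice with the genotype PV:Cre/Nr4a1-f/f/Ribotag (n = 3), called Nr4a1 cKO. Batch 4 held SST mice from the home cage (n = 3) or after CFC (n = 3), and batch 5 held home cage SST mice with the genotype Sst:Cre/Nr4a1-f/f/Ribotag (n = 3). RNA from before the pull-down is not analysed here. Whether each library came from its own animal is not in the labels. The p-values therefore reflect only library-to-library spread, which may be technical.

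Totals ran from 4933110 to 27282912 counts per library, and the PV saline libraries of batch 2 were the shallowest (6161764 and 4933110). The Cre lines were told apart by SST interneuron markers. Within batch 2, the 6 listed summed to 3699 to 5787 CPM (counts scaled to a common library total) in SST saline libraries. In PV saline libraries they summed to 88.1 to 121 CPM. Within batch 2 Pvalb also parted the lines, at 243 to 362 CPM in PV and 6.22 to 12 CPM in SST saline libraries. Pvalb did not part the lines across batches. It was at 155 to 188 CPM in PV home cage libraries of batch 3 and 87.7 to 477 CPM in SST home cage libraries of batch 4. Pvalb itself was low in PV saline libraries of batch 1, at 15.7, 21.8 and 22.1 CPM, while Syt2, a presynaptic calcium sensor of PV cells, was at 586, 760 and 593 CPM there. Nr4a1, the floxed gene, was at 6.73, 16.5 and 7.69 CPM in PV libraries labelled Nr4a1 cKO and at 5.08, 7.35 and 11.3 CPM in PV home cage libraries, so its mRNA level did not check that label. Fos, an activity-induced transcription factor, was tested by edgeR's quasi-likelihood test. After PTZ it rose in SST (log2 3.77 ± 0.37 SE, adjusted p = 0.000446) and PV cells (3.91 ± 0.51, adjusted p = 0.0395). After CFC it rose in SST cells (3.11 ± 0.33, adjusted p = 0.0275). In PV cells Fos was at 75.7 to 93.5 CPM after CFC and 17.4 to 35.1 CPM in the home cage, but did not pass the test. No gene passed in that comparison, so it can miss a change in a member.

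The members lie on 3 chromosomes. On chromosome 2 (GRCm38, GENCODE M21) lie Scn3a (65457118 to 65567627, minus strand), Scn2a (65620771 to 65767447, plus strand) and Scn1a (66270778 to 66440840, minus strand). On chromosome 9 lie Scn3b (40269217 to 40291618), Scn2b (45117782 to 45130070) and Scn4b (45138395 to 45154152), all on the plus strand. Scn2b and Scn4b are 8.3 kb apart, and Scn3b is 4826.2 kb from Scn2b. Scn8a lies on chromosome 15 (100869858 to 101045938, plus strand), 208.3 kb from Nr4a1. Genes on the other strand overlap Scn1a, Scn3a, Scn2b and Scn3b, but they share 0 exon bases with them. The most counts any of these had in a library of batches 3 to 5 was 89, for Gm10684 at Scn2b, and whether the libraries kept strand is not stated in the labels.

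Promoters are shown for Scn2a and Scn1a, chromosome 2 neighbours that differed between the Cre lines in opposite directions, and for the Scn8a start that holds the Nr4a1 binding motif. Each is the 250 bases before a RefSeq transcription start (GRCm38.p6), 5′ to 3′ on the gene's strand, and capitals mark the motif. They lie at chr2:65620519-65620768 (plus strand), chr2:66440838-66441087 (minus strand) and chr15:100936021-100936270 (plus strand).
Scn2a: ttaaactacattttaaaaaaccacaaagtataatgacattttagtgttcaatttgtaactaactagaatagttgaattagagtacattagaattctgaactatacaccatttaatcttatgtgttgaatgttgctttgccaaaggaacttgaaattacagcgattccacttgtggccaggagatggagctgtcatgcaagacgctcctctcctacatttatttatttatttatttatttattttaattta
Scn1a: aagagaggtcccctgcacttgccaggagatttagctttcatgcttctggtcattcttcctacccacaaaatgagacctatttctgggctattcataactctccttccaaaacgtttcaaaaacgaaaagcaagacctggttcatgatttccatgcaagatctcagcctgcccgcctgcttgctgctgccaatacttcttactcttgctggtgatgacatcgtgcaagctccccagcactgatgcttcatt
Scn8a: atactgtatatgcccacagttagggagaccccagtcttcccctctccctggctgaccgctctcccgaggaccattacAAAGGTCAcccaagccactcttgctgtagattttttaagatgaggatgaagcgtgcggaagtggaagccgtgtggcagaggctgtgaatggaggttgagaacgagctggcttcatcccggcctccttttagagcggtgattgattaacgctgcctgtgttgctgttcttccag
The GC content was 29.6% for this Scn2a promoter, 46.8% for Scn1a and 53.2% for Scn8a, against a median of 52.4% over 32851 RefSeq promoters. Windows at another RefSeq start, not printed, had 53.2% for Scn2a and 68.0% for Scn8a. The NBRE motif AAAGGTCA, which Nr4a1 binds as a monomer, was searched on both strands. It began at position -173 from this Scn8a start and was found in 1.336% of promoters. The cAMP response element TGACGTCA, also searched on both strands and present in 1.546% of promoters, was in none of the 7 windows that the table held for Scn1a, Scn2a, Scn2b, Scn4b and Scn8a.

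SST and PV libraries of batch 2 both held all 7 sodium channel mRNAs, at different levels. Among saline libraries of batch 2, the only batch with both Cre lines, Scn2a, Scn3a and Scn3b were higher in SST libraries, and Scn1a, Scn8a, Scn2b and Scn4b were lower. The count was 7 of 7 members, where 53.1% of the 11784 genes tested were called (26.0% higher and 27.1% lower), so most genes that passed the filter differed in this comparison as well. The CPM ranges of SST and PV libraries did not overlap for any of the 7 members, nor for 59.3% of all genes. Fewer cells of a type and less RNA per cell cannot be told apart in such bulk libraries.

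Among the pore subunits, Scn1a was at 813, 881, 865 and 867 CPM in SST saline libraries and at 1166 and 1403 CPM in PV saline libraries. Every SST library was below both PV libraries, with means of 857 ± 29.8 CPM (SD, n = 4) and 1285 ± 168 CPM (n = 2). The log2 fold change was -0.58 ± 0.11 (SE, adjusted p = 0.000669, edgeR's quasi-likelihood test with Benjamini-Hochberg adjustment, as for all adjusted p-values below).

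Scn8a was at 693, 779, 846 and 715 CPM in SST libraries and at 1050 and 2029 CPM in PV libraries. The groups did not overlap, although the PV libraries lay far apart. The log2 fold change was -1.02 ± 0.20 (adjusted p = 0.00134). Without the PV library at 2029 CPM it was -0.46 (adjusted p = 0.0171), and without the other PV library -1.43.

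Scn2a had the opposite direction, at 548, 556, 528 and 562 CPM in SST libraries and 74.8 and 145 CPM in PV libraries. The SST libraries agreed closely and all stood well above the PV libraries. This was a log2 fold change of 2.33 ± 0.21, or 5.02-fold (adjusted p = 4.93e-06).

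Scn3a was the least abundant pore subunit, at 37.5, 58.9, 55.8 and 48.3 CPM in SST libraries and 6.2 and 9.83 CPM in PV libraries. The PV values rest on 41 to 46 counts per library, yet the groups lay clearly apart. Its log2 fold change was 2.67 ± 0.28 (6.36-fold, adjusted p = 1.15e-05).

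Among the beta subunits, Scn3b and Scn4b had the largest differences of all 7 members and Scn2b the smallest. Scn3b was at 241, 188, 210 and 238 CPM in SST libraries and 15.7 and 16.2 CPM in PV libraries. Even the lowest SST library stood far above both PV libraries, with a log2 fold change of 3.78 ± 0.16 (13.7-fold, adjusted p = 1.88e-08).

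Scn4b was at 5.62, 7.45, 9.4 and 8.3 CPM in SST libraries and 94.2 and 86.4 CPM in PV libraries. It was nearly the mirror image of Scn3b, with a log2 fold change of -3.55 ± 0.20, 11.7-fold lower in SST cells (adjusted p = 1.28e-07). Scn2b, which binds the pore subunit covalently, was at 280, 249, 289 and 319 CPM in SST libraries and 367 and 385 CPM in PV libraries. The groups did not overlap, and the log2 fold change was -0.40 ± 0.12 (adjusted p = 0.0133).

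**Figure D1:**
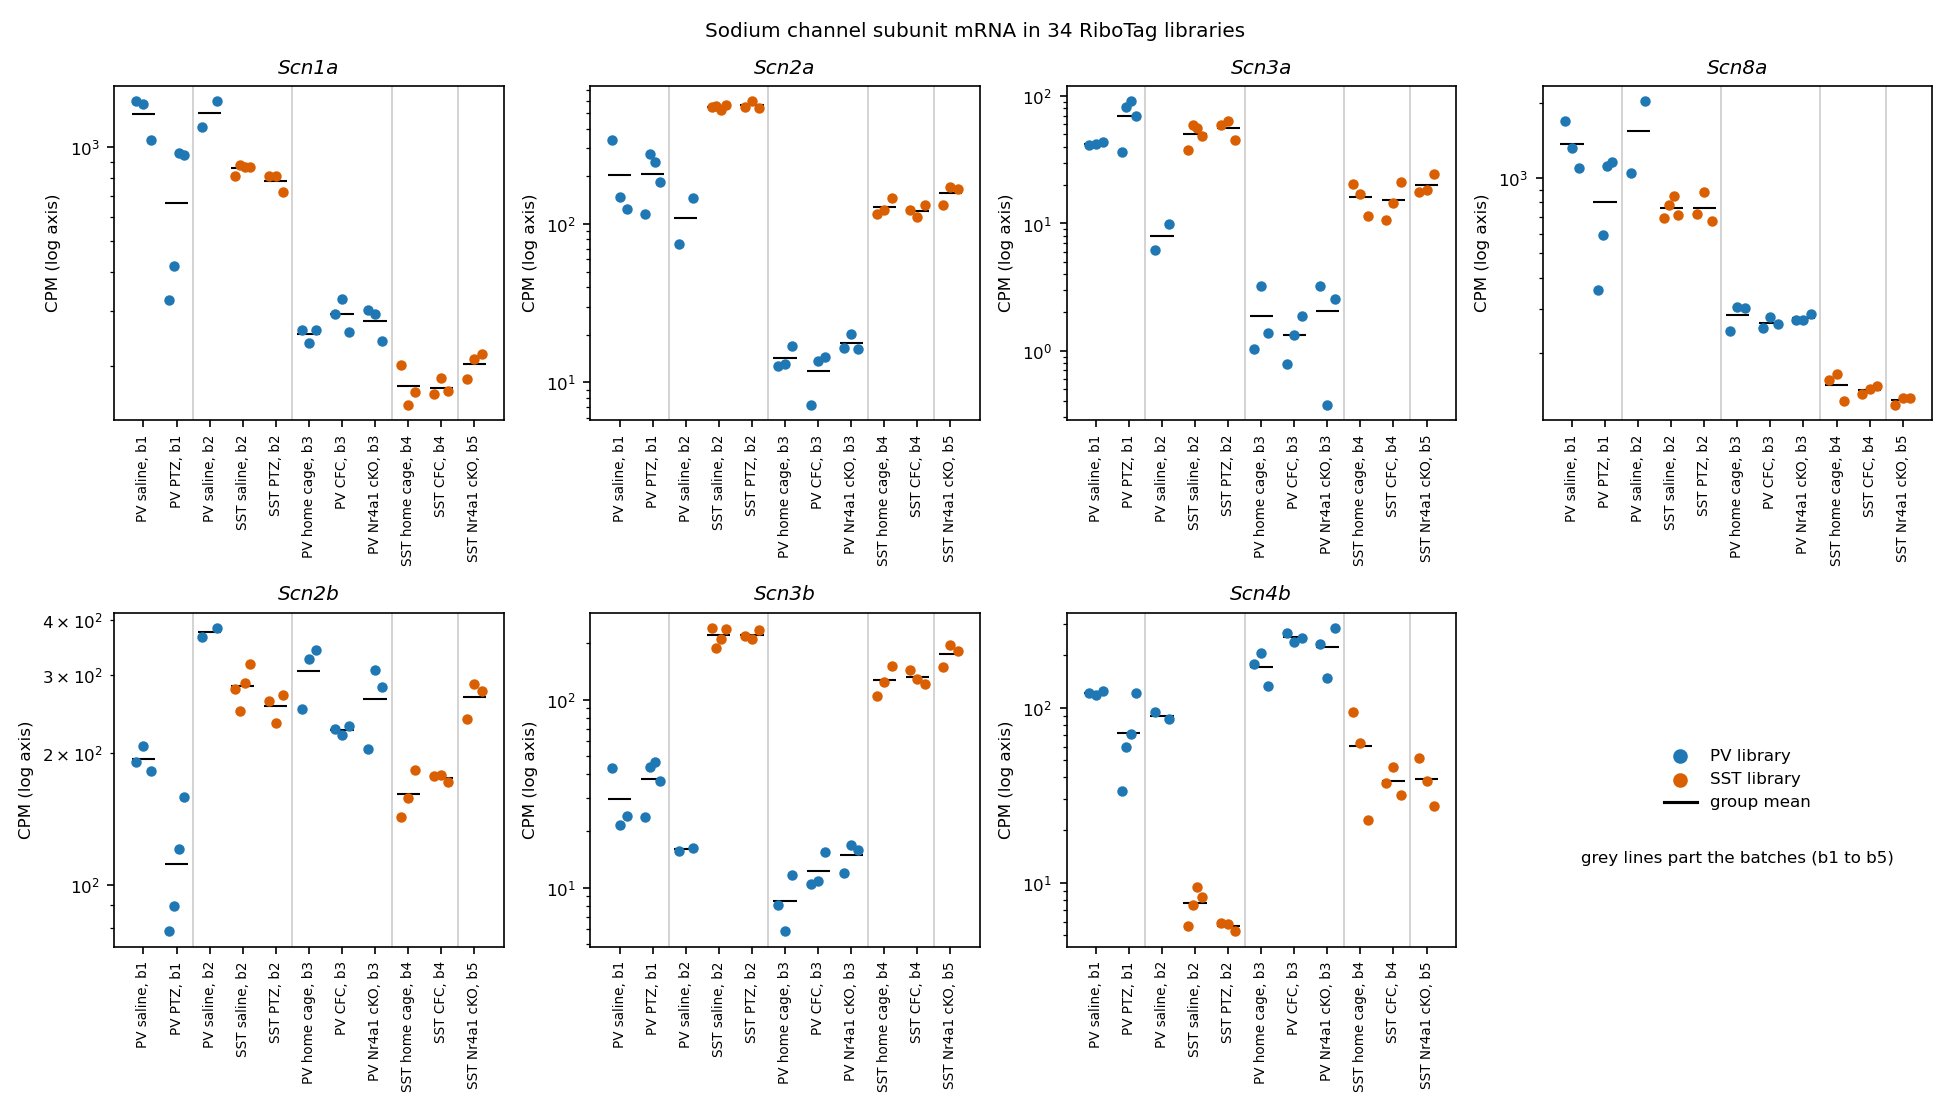
CPM (log axis) of each member in every library, with 1 point per library, a black bar for the group mean and grey lines between batches b1 to b5. Scn2a and Scn3b are higher, and Scn4b lower, in the SST libraries of batch 2 than in its PV libraries; levels in different batches come from tables scaled separately and are not tested against each other.

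Other sodium channel genes were read from a fixed list. Nalcn, a sodium leak channel, was higher in SST cells (log2 1.26 ± 0.15, adjusted p = 2.97e-05). Scn9a was at 1.33 ± 0.71 and did not pass the test (adjusted p = 0.133). Scn7a had 0 counts in both PV libraries and 80 to 128 counts per SST library. Against a floor of 3 counts over the PV group, this made it at least 23.4-fold higher in SST cells, and the floor covers counting error only.

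Genes whose proteins bind the channels or anchor them at the axon initial segment were read from a fixed list. Of 22 tested, 8 were higher in SST cells and 3 were lower, a share near the 53.1% of all genes called, and the median log2 difference was 0.14. Those higher were the channel-binding FGF homologs Fgf14 (log2 1.58 ± 0.19) and Fgf13 (0.74 ± 0.26), the ubiquitin ligase Nedd4l (1.33 ± 0.17), the M-current potassium channel Kcnq3 (1.01 ± 0.20), the adhesion molecules Cntn1 (0.92 ± 0.14) and Cntnap2 (0.75 ± 0.13), the microtubule organizer Trim46 (0.79 ± 0.20) and the channel regulator Prrt2 (0.74 ± 0.15). Those lower were Fgf9 (-1.84 ± 0.14), a secreted growth factor, the spectrin Sptbn4 (-1.53 ± 0.31), which anchors channels, and Fgf11 (-0.78 ± 0.16). The scaffold Ank3, which recruits sodium channels to the initial segment, was at 0.23 ± 0.17 and did not pass the test (adjusted p = 0.27).

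Markers of other cells were read in the same comparison. Excitatory neuron markers summed to 1085 to 1617 CPM in SST and 1424 to 1526 CPM in PV saline libraries, with 0 of 7 higher and 1 lower. Astrocyte markers summed to 1098 to 1159 CPM and 1096 to 1281 CPM, and oligodendrocyte markers to 299 to 354 CPM and 296 to 319 CPM. Vascular and mural markers summed to 21.5 to 43.2 CPM in SST and 5.34 to 16 CPM in PV libraries, with 3 of 6 higher, and in a PV library up to 3 of the 6 were at 0. Microglial markers summed to 22.5 to 25.1 CPM and 13.3 to 15.9 CPM, with 2 of 6 higher and 1 lower, and OPC markers to 18.8 to 23.4 CPM and 12.2 to 13.9 CPM, with 1 of 4 higher. The part of these cells in the members' differences was not tested.

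**Figure D2:**
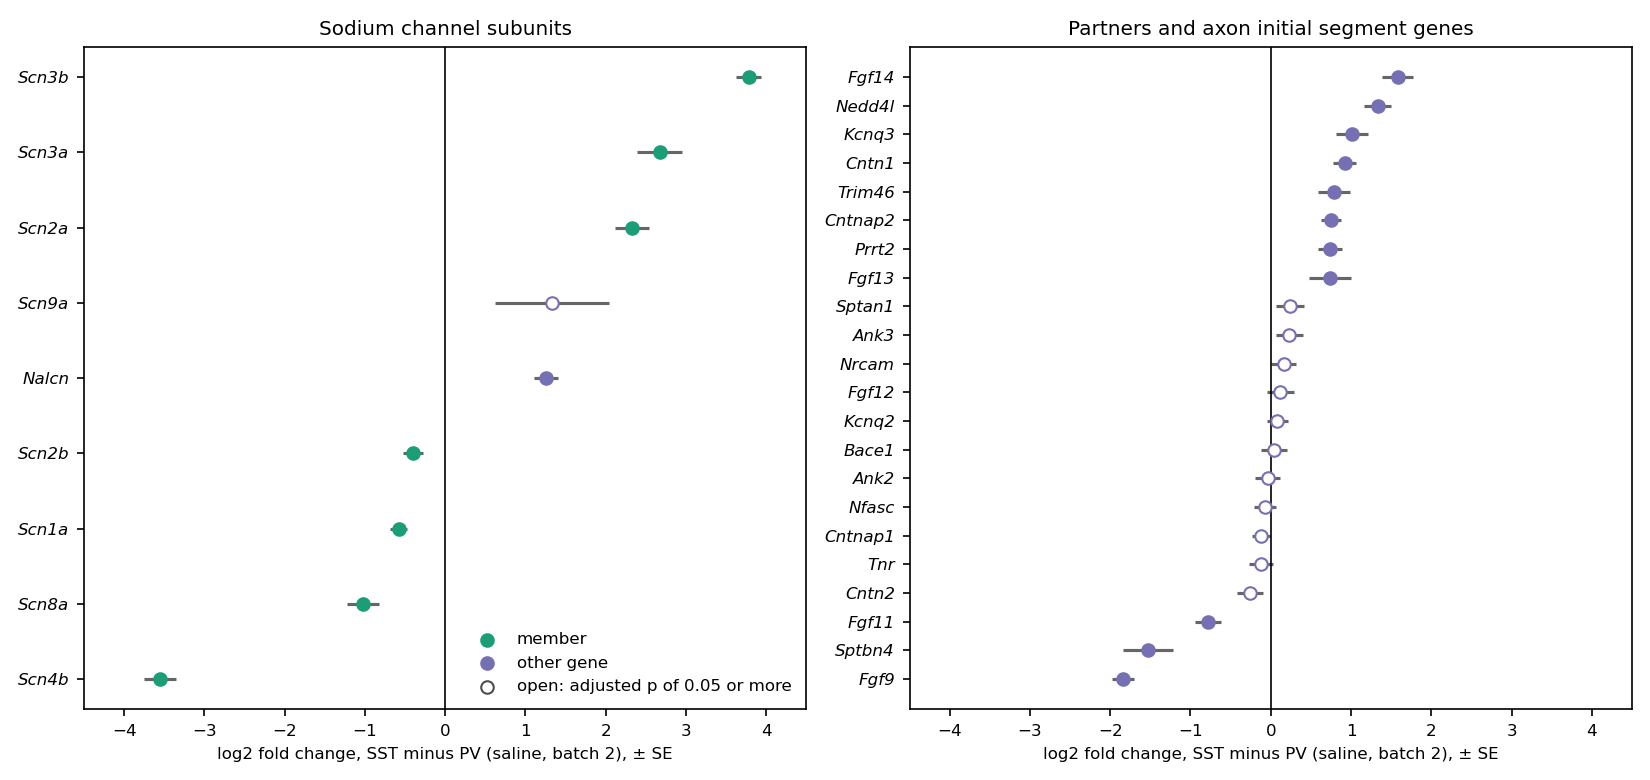
Log2 fold change (± SE) of SST minus PV saline libraries of batch 2 for sodium channel genes (left) and partners (right); filled points had an adjusted p under 0.05. Scn3b at 3.78 and Scn4b at -3.55 mark the ends of the left panel, which leaves out Scn7a because it was at 0 in both PV libraries.

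Dividing CPM by exon length allowed levels of different members to be compared. Scn1a was the most abundant pore subunit per kilobase in SST saline libraries (76.9 ± 2.67 CPM per kb, n = 4), ahead of Scn8a (48.1 ± 4.36), Scn2a (43.1 ± 1.17) and Scn3a (4.02 ± 0.763). Scn8a and Scn2a were close to each other there. In PV saline libraries of the same batch, Scn1a (115 ± 15 CPM per kb, n = 2) and Scn8a (97.6 ± 43.9) overlapped within their spread, and Scn2a (8.62 ± 3.88) and Scn3a (0.643 ± 0.206) were far below. Among the beta subunits of SST saline libraries the order was Scn2b (61 ± 6.2 CPM per kb), Scn3b (40.2 ± 4.64) and Scn4b (1.54 ± 0.32). In PV saline libraries it was Scn2b (80.7 ± 2.63), Scn4b (18.1 ± 1.11) and Scn3b (2.93 ± 0.0678), so Scn3b and Scn4b traded places.

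As a share of the pore subunits' summed CPM per kb, Scn2a made up 23.4% to 26.4% in SST saline libraries and 3.31% to 4.26% in PV saline libraries of batch 2. Every SST library of the other groups was at 23.4% or more and every PV library at 21% or less. Scn2a was 23.4% to 32.5% of the pore sum in SST home cage libraries of batch 4 and 28.9% to 31.9% in SST libraries labelled Nr4a1 cKO, and 2.46% to 3.04% in PV home cage libraries of batch 3. In batch 1 it was 5.23% to 10.2% in PV saline libraries and 8.12% to 21% in PV PTZ libraries, whose highest value came near the SST range. Scn3b was 37.6% to 41.9% of the beta sum in SST saline libraries, 27.8% to 38.7% in SST home cage libraries and 0.952% to 2.08% in PV home cage libraries.

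**Figure D3:**
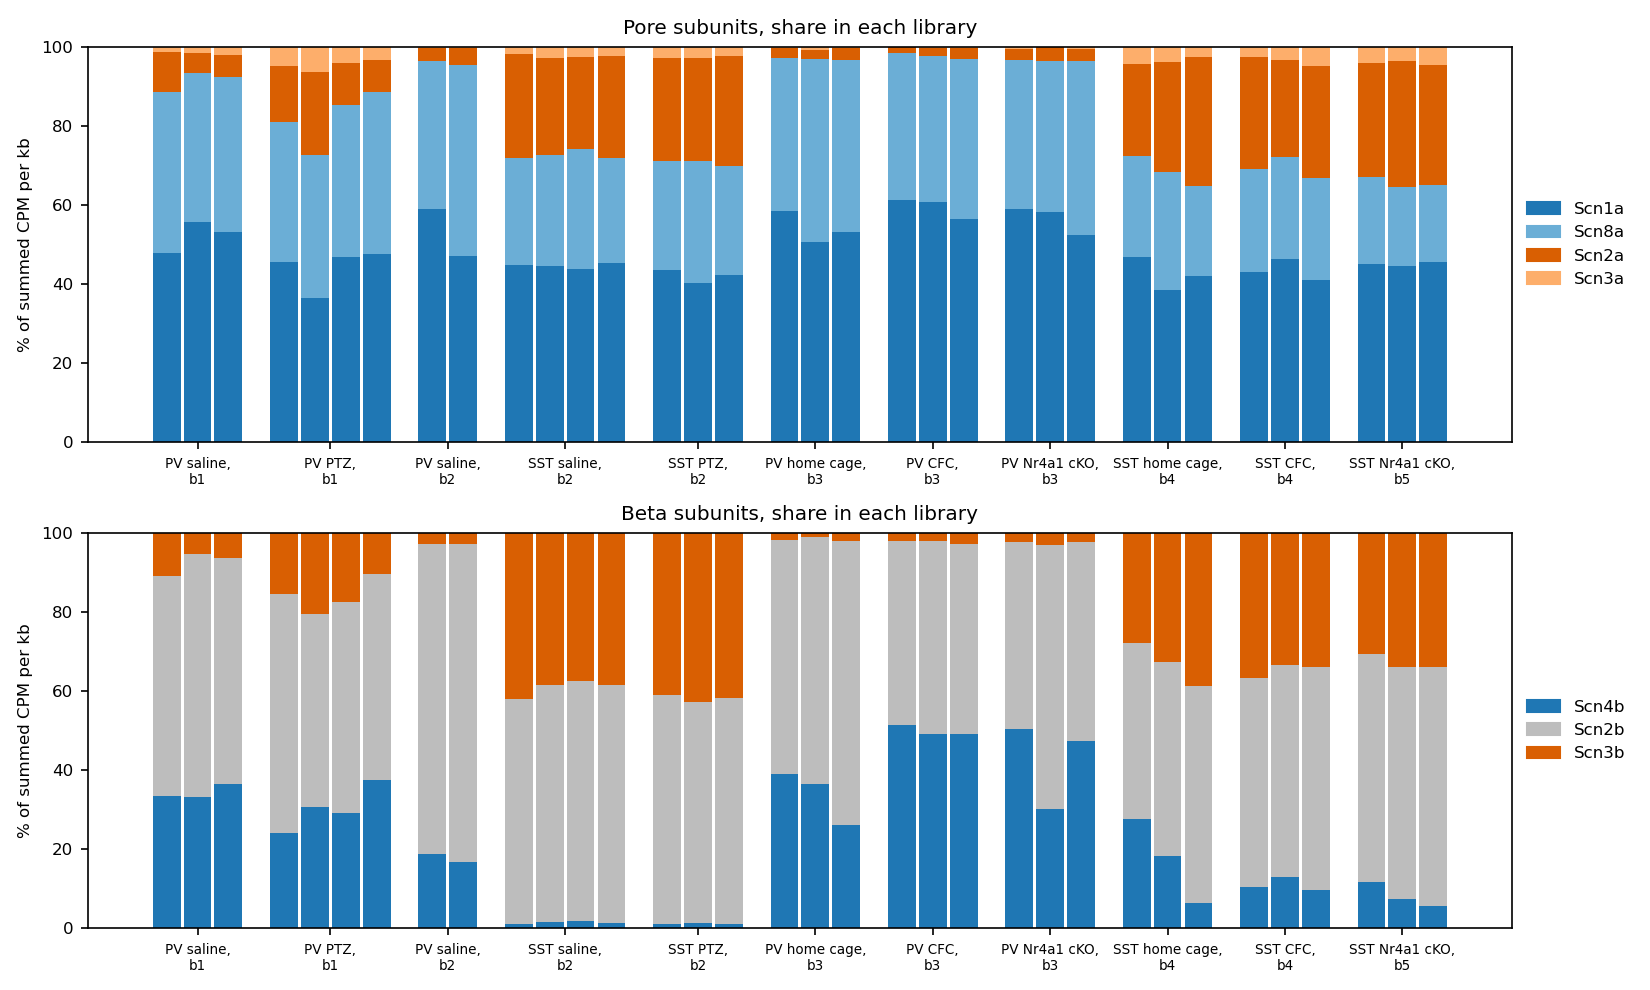
Share (%) of each pore subunit (top) and beta subunit (bottom) in the summed CPM per kb of its class, with 1 stacked bar per library. Scn2a (dark orange, top) takes 23.4% to 26.4% in SST saline libraries and 3.31% to 4.26% in PV saline libraries of batch 2, and Scn3b (orange, bottom) is the smallest beta share in PV libraries of batches 2 and 3.

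SST and PV home cage libraries come from different batches, so cell type and batch cannot be told apart there and the values are only set side by side. Scn4b was at 178, 205 and 133 CPM in PV home cage libraries of batch 3 and at 94.8, 63.2 and 22.7 CPM in SST home cage libraries of batch 4. Scn3b was at 8.1, 5.85 and 11.6 CPM and at 105, 124 and 151 CPM. The direction was that of batch 2 for both genes, and the SST level of Scn4b was nearer to the PV level than in batch 2. Scn2a was at 14.3 ± 2.39 CPM (SD, n = 3) in PV and 128 ± 16.2 CPM (n = 3) in SST home cage libraries. Scn3a was at 1.87 ± 1.17 and 16.3 ± 4.57 CPM, Scn1a at 252 ± 14.2 and 172 ± 26.5 CPM, Scn8a at 284 ± 33.4 and 149 ± 19.1 CPM, and Scn2b at 307 ± 48.3 and 161 ± 20.1 CPM.

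After PTZ, no member passed the test in PV cells of batch 1 (0 of 7, where 0.0294% of 13598 genes were called). At an unadjusted p under 0.05, 4 of 7 members and 13.8% of all genes would be counted. The members' median log2 difference was -0.78, and that of all genes was -0.01.

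Scn1a was at 1406, 1382 and 1053 CPM in PV saline libraries and at 324, 418, 960 and 949 CPM in PV PTZ libraries. All PTZ libraries were below all saline libraries, but they split into a low and a high pair. The log2 fold change was -0.97 ± 0.36 (adjusted p = 0.324). Scn2b was at 191, 207 and 182 CPM with saline and 78.6, 89.6, 121 and 159 CPM with PTZ, again with no overlap (-0.80 ± 0.24, adjusted p = 0.297). No overlap in either direction was seen for 2 of 7 members and for 13.6% of all genes.

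Scn8a was at 1690, 1320 and 1101 CPM with saline and 356, 590, 1113 and 1155 CPM with PTZ, where the higher PTZ libraries reached the saline range (log2 -0.79 ± 0.37, adjusted p = 0.368). Scn4b was at 122, 119 and 124 CPM with saline and 33.4, 59.9, 70.7 and 122 CPM with PTZ (-0.78 ± 0.34, adjusted p = 0.35). Its saline libraries lay close together and its PTZ libraries spread widely. Scn3a was at 41.1, 41.9 and 43.8 CPM with saline and 36.7, 81.6, 91.3 and 69.3 CPM with PTZ, where 3 of 4 libraries were above all saline libraries (0.71 ± 0.27, adjusted p = 0.325). Scn2a (-0.01 ± 0.38) and Scn3b (0.33 ± 0.30) had overlapping groups.

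Markers of PV interneurons also varied among PTZ libraries, and not all in 1 direction. PTZ replicates 1 and 2, which had the lowest Scn1a, had 112 and 120 CPM of Syt2, while replicates 3 and 4 had 452 and 421 CPM. Summed PV interneuron markers did not follow that split, at 3921, 1698, 4980 and 4059 CPM in PTZ replicates 1 to 4, against 4135 to 6348 CPM in saline libraries. That sum is weighted to Gad1, with means of 2336 CPM with PTZ and 2752 CPM with saline. Kcnc1, the next most abundant with saline, had means of 587 and 1096 CPM. The sign was negative for 6 of the 7 PV markers, with 0 past the test. Pvalb was the exception, at 76.8, 40.1, 75.5 and 128 CPM with PTZ, above all saline libraries (log2 2.00 ± 0.35, adjusted p = 0.159). Of markers of other cells, the signs were positive for 7 of 7 microglial markers (median log2 1.88), 8 of 8 vascular and mural markers (1.05), 8 of 8 excitatory neuron markers (0.63), 6 of 6 oligodendrocyte markers (0.57), 4 of 4 OPC markers (0.77) and 6 of 7 astrocyte markers (0.21). Microglial markers summed to 48.1 to 340 CPM after PTZ and 24.9 to 88.7 CPM with saline, and vascular and mural markers to 70.9 to 153 CPM and 30.5 to 56.8 CPM. These microglial ranges overlapped, and the vascular and mural ranges did not. Summed ranges also overlapped for excitatory neuron (1672 to 2443 and 1174 to 2801 CPM), astrocyte (1982 to 3306 and 988 to 4874 CPM), oligodendrocyte (535 to 3411 and 808 to 2183 CPM) and OPC markers (64.6 to 128 and 28.4 to 81.9 CPM). No listed marker of these cells was at 0, and their part in the members' values was not tested. Without PTZ replicates 1 and 2, a choice made after seeing the data, Scn1a was at -0.45 (adjusted p = 0.663), Scn2b at -0.49, Scn8a at -0.30 and Scn4b at -0.37.

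**Figure D4:**
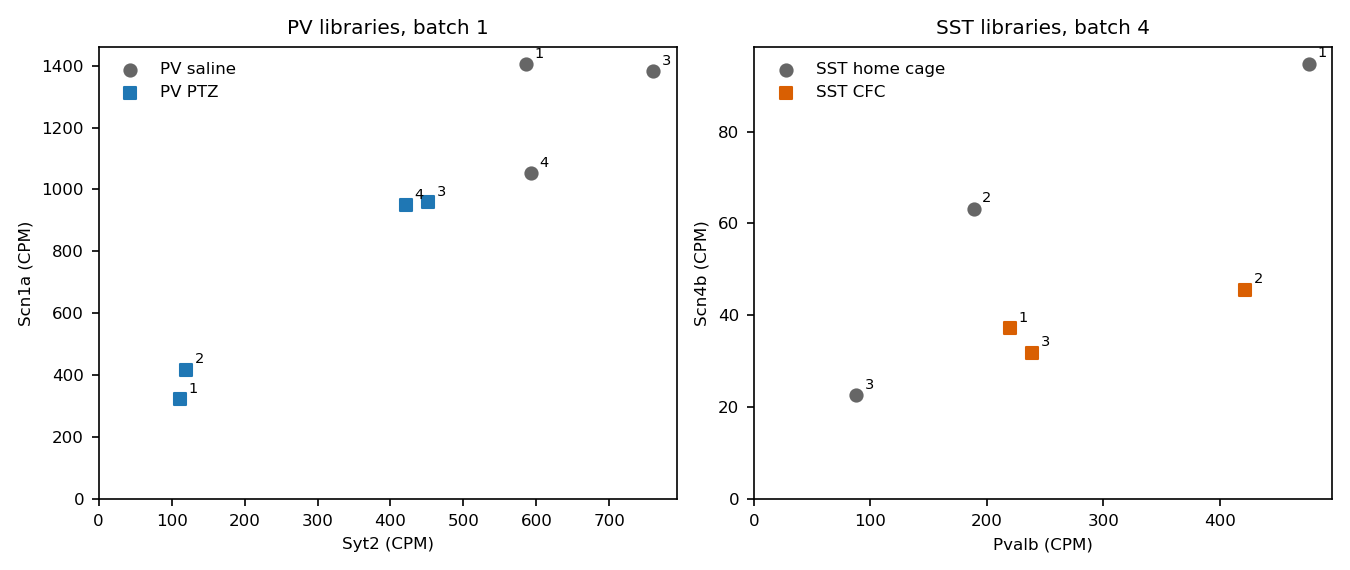
Left, Scn1a against the PV marker Syt2 (CPM) in the PV libraries of batch 1; right, Scn4b against Pvalb (CPM) in the SST libraries of batch 4; each point is a library and the number is its replicate. PTZ replicates 1 and 2 lie lowest on both axes at left, and SST home cage replicate 1 lies highest on both axes at right.

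In SST cells of batch 2, PTZ also left no member past the test (0 of 7, where 0.144% of 11784 genes were called), and 1 member and 4.34% of genes had an unadjusted p under 0.05. That member was Scn4b, at 5.62, 7.45, 9.4 and 8.3 CPM with saline and 5.92, 5.84 and 5.27 CPM with PTZ (log2 -0.44 ± 0.19, adjusted p = 0.989). The groups overlapped at its low end. Scn1a was at 808, 812 and 722 CPM with PTZ, just below all saline libraries (-0.13 ± 0.10, adjusted p = 0.989). It was the 1 member whose groups did not overlap, against 10.4% of genes. The other 5 members had log2 differences between -0.15 and 0.16 and overlapping groups. The SST response to PTZ minus the PV response passed the test for 0 of 7 members and for 0% of 11743 genes, with 1 member and 5.13% of genes at an unadjusted p under 0.05. For Scn1a that difference was 0.79 ± 0.39 (adjusted p = 0.82) and for Scn2b 0.61 ± 0.26 (adjusted p = 0.82).

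CFC left no member past the test in PV cells of batch 3 (0 of 7, where 0% of 15150 genes were called). At an unadjusted p under 0.05, 2 of 7 members and 18.7% of genes would be counted, and these were beta subunits with opposite signs. Scn4b was at 178, 205 and 133 CPM in home cage libraries and 269, 237 and 252 CPM after CFC. Every CFC library was above every home cage library (log2 0.53 ± 0.21, adjusted p = 0.224). With no filter on low counts Scn4b passed (0.55, adjusted p = 0.026), but so did 1032 of 26819 genes in all. Scn2b was at 252, 327 and 342 CPM in home cage libraries and 227, 220 and 230 CPM after CFC. Every CFC library was below every home cage library (-0.47 ± 0.17, adjusted p = 0.191). Without home cage replicate 1 Scn2b passed (-0.60, adjusted p = 0.0419), but so did 1481 genes in all. No overlap was seen for 2 of 7 members and 25.1% of genes.

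Within the beta sum per kb of PV libraries, Scn4b was 26.1% to 39.1% in the home cage and 49.1% to 51.5% after CFC. The share was above the home cage range in all 3 CFC libraries. It is formed from the Scn4b and Scn2b values above, so it is not a separate result. In PV libraries labelled Nr4a1 cKO the share was 50.3%, 30.1% and 47.5%, so a high share was not particular to CFC. The pore subunits had smaller values or wide errors. Scn1a was at 261, 236 and 260 CPM and 293, 327 and 256 CPM (0.18 ± 0.13), Scn8a differed by -0.14 ± 0.12, Scn2a by -0.29 ± 0.27 and Scn3a, with 13 to 47 counts per library, by -0.52 ± 0.74. Scn3b was at 0.51 ± 0.29. Markers of PV interneurons had a median log2 difference of 0.25, with 4 positive signs, 3 negative signs and 0 of 7 past the test. They summed to 3949 to 5423 CPM in the home cage and 5540 to 6490 CPM after CFC. Gad1, the largest part of that sum, had means of 2734 and 4089 CPM. Kcnc1 (764 and 639 CPM), Tac1 (215 and 175 CPM) and Pvalb (167 and 164 CPM) had lower means after CFC. The part of these markers in the members' values was not tested.

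In SST cells of batch 4, CFC left no member past the test (0 of 7, where 0.0411% of 14614 genes were called), and 0 members had an unadjusted p under 0.05, against 5.57% of genes. Scn4b had the widest spread, at 94.8, 63.2 and 22.7 CPM in home cage and 37.2, 45.6 and 31.9 CPM in CFC libraries, and the CFC libraries lay within the home cage range (log2 -0.66 ± 0.42, adjusted p = 0.994). The home cage libraries had 477, 189 and 87.7 CPM of Pvalb in the same order, and the CFC libraries 220, 422 and 239 CPM. Without home cage replicate 1, the difference in Scn4b was -0.17 and without replicate 3 it was -1.05. The other 6 members differed by -0.08 to 0.12. The groups overlapped for all 7 members, and did not for 10.6% of genes. Vascular and mural markers summed to 116 to 581 CPM in home cage and 54.4 to 78.8 CPM in CFC libraries, and their part was not tested.

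The SST response to CFC minus the PV response passed the test for 0 of 7 members and for 0% of 16044 genes, with 2 members and 15.3% of genes at an unadjusted p under 0.05. For Scn4b it was -1.13 ± 0.52 (adjusted p = 0.317). With no filter on low counts Scn4b passed (-1.16, adjusted p = 4.7e-05), but so did 707 of 29137 genes in all. For Scn2b the difference in response was 0.66 ± 0.21 (adjusted p = 0.213). Without PV home cage replicate 1 Scn2b passed (0.80, adjusted p = 0.0295), but so did 879 genes in all.

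PV libraries labelled Nr4a1 cKO shared their home cage controls with the CFC comparison, so these 2 comparisons are not independent. No member passed the test (0 of 7, where 0.139% of 15150 genes were called), and 1 member and 17.8% of genes had an unadjusted p under 0.05. Scn3b was at 8.1, 5.85 and 11.6 CPM in home cage libraries and 11.9, 16.9 and 15.9 CPM in those labelled Nr4a1 cKO. All of the latter were higher (log2 0.78 ± 0.29, adjusted p = 0.2), and no overlap was seen for 1 of 7 members and 18.4% of genes. Scn8a, whose second RefSeq start holds the NBRE motif printed above, was at 245, 304 and 302 CPM in home cage libraries and 271, 272 and 285 CPM in those labelled Nr4a1 cKO. The groups overlapped (-0.07 ± 0.12, adjusted p = 0.796).

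Scn4b was at 232, 148 and 287 CPM in the PV libraries labelled Nr4a1 cKO (0.34 ± 0.21, adjusted p = 0.408) and Scn2b at 204, 309 and 283 CPM (-0.24 ± 0.17, adjusted p = 0.467). Both overlapped the home cage range. Scn1a (0.11 ± 0.13), Scn2a (0.29 ± 0.27) and Scn3a (0.10 ± 0.73) overlapped it too. Oligodendrocyte markers (6 of 6 with a positive sign, median log2 1.08) summed to 399 to 951 CPM in libraries labelled Nr4a1 cKO and 211 to 370 CPM in home cage libraries. Vascular and mural markers (7 of 8, median 1.15) summed to 47.6 to 285 CPM and 108 to 132 CPM, and their part in these values was not tested.

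SST libraries labelled Nr4a1 cKO make up batch 5 alone, so genotype and batch cannot be told apart and no test was made. Scn2b was at 239, 287 and 277 CPM there and at 143, 158 and 183 CPM in SST home cage libraries of batch 4. It was the 1 member of 7 whose groups did not overlap, against 31.9% of 15032 genes. Vascular and mural markers summed to 1139, 49.7 and 50.1 CPM in these libraries of batch 5, and their part was not tested. Scn8a was at 124, 132 and 132 CPM and at 156, 164 and 128 CPM, which overlapped. Scn3b was at 149, 194 and 182 CPM and at 105, 124 and 151 CPM, Scn2a at 132, 171 and 166 CPM and at 115, 122 and 146 CPM, and Scn1a at 181, 210 and 219 CPM and at 201, 150 and 165 CPM. Those 3 members overlapped between the batches, as did Scn4b (39.1 ± 12.2 and 60.2 ± 36.2 CPM, SD, n = 3 each) and Scn3a (20.2 ± 3.66 and 16.3 ± 4.57 CPM).

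**Figure D5:**
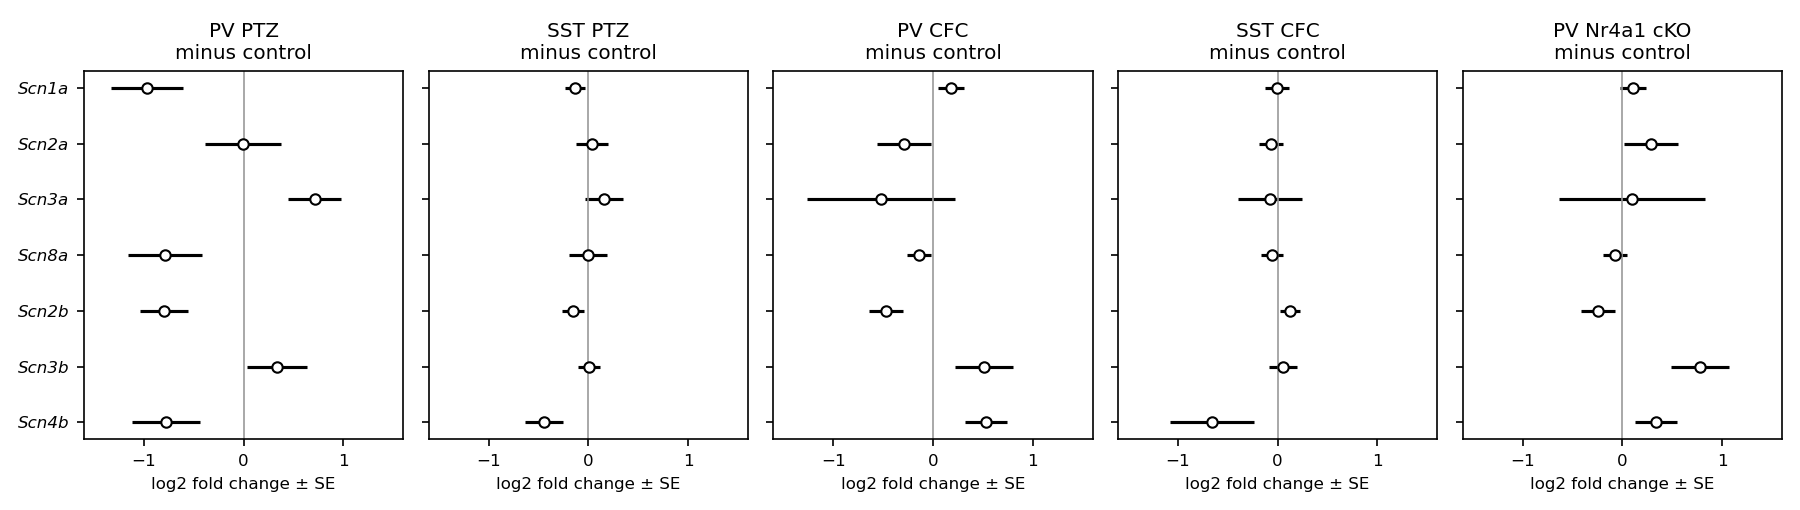
Log2 fold change (± SE) of the 7 members in each stimulus or genotype comparison; every point is open because no member had an adjusted p under 0.05. Values run from -0.97 (Scn1a, PV PTZ) to 0.78 (Scn3b, PV libraries labelled Nr4a1 cKO), and PV PTZ has wide errors.

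Across the 34 libraries, with each gene's log2(CPM + 1) centred on its batch mean, members fell into 2 sets. This centring keeps the difference between Cre lines in batch 2, and the sets were the members higher and lower in SST libraries there. Scn2a and Scn3b had Pearson's r = 0.905, and Scn1a and Scn8a r = 0.885. Scn3b and Scn4b had r = -0.812. Centred on group means instead, which takes out Cre line and treatment, these were 0.756, 0.837 and -0.140. The 2 sets were not kept as a whole then. Scn3a with Scn3b went from 0.754 to -0.074, and Scn3a with Scn8a from -0.300 to 0.507. These are descriptions over libraries that share batches, depth and RNA yield, with no p.

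Genes most like each member were ranked by the same measure among 7998 genes. For Scn1a they were Dner (0.945), Syngr1 (0.941) and Elmod1 (0.938), and for Scn8a Scarb2 (0.924), Chgb (0.914) and Gabbr2 (0.905). For Scn2a they were Cacng3 (0.950), Lgi1 (0.943) and Ildr2 (0.940), and for Scn3a Myt1l (0.860), Cacna2d3 (0.844), followed by Trrap. Scn2b was most like Tecr (0.907), Slc32a1, the vesicular GABA transporter (0.893), and Lrrc8a (0.884). Scn3b was most like Synpr (0.957), Ildr2 (0.950) and Grin3a (0.940), and Paqr4 (0.923) was among the 3 genes most like Scn4b. Ildr2 was shared by Scn2a and Scn3b. Centred on group means instead, r was 0.886 to 0.921 for the genes named for Scn1a and 0.856 to 0.883 for Scn8a. It was 0.837 to 0.857 for Scn2a and 0.784 to 0.824 for Scn2b. With Scn3a it was 0.552 for Myt1l and 0.401 for Cacna2d3. With Scn3b it was 0.763 for Synpr, 0.794 for Ildr2 and 0.307 for the SST marker Grin3a. For Paqr4 with Scn4b it was 0.656.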

How the data were processed

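Ribosome-bound polyA RNA was sequenced in 34 libraries of 11 groups, taken from the sample titles. DESeq2 (version not stated), HTSeq 0.11.0, cutadapt 1.18 and STAR 2.5.2a, with the builds mm10 and GRCm39, are named in the submitters' processing notes without role or order. The authors deposited expected counts for batch 1, read as such because 11.3% were not whole, and rounded here; the labels do not say which tool estimated them. The other 4 tables hold raw gene counts, as deposited by the authors, all whole numbers; unused columns of values numbered 0. Among 37 replicate pairs, 0 were identical. Here, edgeR 4.0.16 in R 4.3.3 was used (TMM scaling, filterByExpr, robust two-sided quasi-likelihood F test, Benjamini-Hochberg threshold 0.05 over all genes tested) within each table; standard errors are the absolute log2 fold change over the square root of F. CPM used TMM scaling within a table. Exon lengths came from GENCODE M21, in which 53274 of 53465 identifiers matched. Scripts were tested on simulated data. Alternatives were RLE scaling, no filter, DESeq2 1.42.0, limma 3.58.1 voom, the compared groups alone, no robust estimation, a replicate block and each library left out. Named genes are the 7 members, list genes called (or, for no calls, the smallest p) and the 3 genes most like each member. Some genes these rules pick, and the count of other sodium channel genes called, are not reported here. Members and lists were chosen with earlier results of these data known.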

Additional observations from a re-analysis of the deposited data

How the results depend on the processing

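The 7 members called between SST and PV saline libraries stayed at 7 under every alternative (all genes 4947, with the replicate block, to 6628, with DESeq2) and with each library left out (all genes 5476 to 6982). With one library left out, members called were 0 to 0 in both PTZ comparisons, PV cKO, SST CFC and the response to PTZ, and 0 to 1 in PV CFC and the response to CFC, where 1 appeared without PV home cage replicate 1 and with no filter. All genes called then ran from 0 to 14 in PV PTZ (14 without saline replicate 1), 13 to 17 in SST PTZ, 0 to 1481 in PV CFC, 7 to 1224 in PV cKO, 1 to 37 in SST CFC (37 without home cage replicate 1), 0 to 1 in the response to PTZ and 0 to 879 in the response to CFC; 1481, 1224 and 879 were without PV home cage replicate 1. DESeq2 called 215 (PV PTZ), 38 (SST PTZ), 617 (PV CFC), 650 (PV cKO), 101 (SST CFC), 1 and 221 (responses to PTZ and CFC). With no filter the counts were 1032 (PV CFC), 1072 (PV cKO), 11 (SST CFC) and 707 (response to CFC). With voom they were 27 (SST PTZ) and 1 (PV CFC), and with the compared groups alone 38 (SST PTZ), 2 (PV CFC) and 10 (PV cKO). Without PV PTZ replicates 1 and 2, PV PTZ had 0. The causes were not tested. Replicate numbers do not pair libraries (correlations of deviations from -0.231 to 0.353); with the replicate block, counts were 2 (PV PTZ), 8 (SST PTZ), 2 (PV CFC), 27 (PV cKO), 2 (SST CFC) and 1 (response to PTZ), and members called did not change. Some uncalled values changed sign, and not only those near 0. Scn3a, which changed sign in PV CFC and in the response to CFC, was at -0.52 and 0.50 there in the main fit. Scn2a in PV PTZ was 0.01 with no filter, 0.07 with voom, 0.04 without PTZ replicates 1 and 2, and -0.25 to 0.57 over all settings; Scn3a in PV cKO was -0.12 with voom. With one library left out, in SST PTZ Scn3b ran from -0.06 to 0.05 and Scn2a from -0.01 to 0.06; Scn3a ran from -0.85 to 0.12 in PV CFC, -0.39 to 0.74 in PV cKO and -0.18 to 0.83 in the response to CFC; in SST CFC Scn1a ran from -0.10 to 0.12, Scn3a -0.38 to 0.13, Scn3b -0.07 to 0.19, Scn8a -0.16 to 0.01 and Scn2a -0.14 to 0.03; and Scn1a ran from -0.24 to 0.01 in the response to CFC. Precision is limited by 2 shallow PV libraries in batch 2, by groups of 3 or 4, and for Scn3a in PV libraries of batch 3 by as few as 9 counts.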
